A study of Arabidopsis thaliana with 24 samples.

Results

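Transcripts of the core circadian clock were followed across 8 Arabidopsis thaliana mutant lines with altered root epidermal patterning. A list of 10 clock genes was drawn up by name, comprising LHY, CCA1, PRR9, PRR7, PRR5, TOC1, GI, ELF3, ELF4 and LUX. Of these, 8 were among the 21440 genes measured and are described here, whereas PRR9 and LUX were not analysed here. PRR7 was selected on its measured log2 difference between wer and myb23, so its levels in those lines are given as a description without a test. The question addressed was whether the arrays differed in clock phase, for instance through the time of harvest, which the labels do not give.

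The plant clock is a loop of transcriptional repressors that are expressed one after another through the day. The MYB factors LHY and CCA1 peak around dawn, the pseudo-response regulators PRR9, PRR7, PRR5 and TOC1 follow in that order from morning to evening, and GI and the evening complex of ELF3, ELF4 and LUX act in the later part of the cycle. LHY and CCA1 repress evening genes, and the pseudo-response regulators repress LHY and CCA1 in turn, so a shift in phase can move dawn and evening transcripts in opposite directions. In seedlings kept in constant light the rhythm runs free, and roots are known to carry a clock that can run differently from that of shoots.

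Single mutants were wer-1 and myb23-1, which affect R2R3 MYB factors, gl3-1 and egl3-1, which affect bHLH factors, cpc-1 and try-82, which affect small MYB proteins, and ttg2-1, which affects a WRKY factor. The remaining line was labelled as the double mutant of cpc-1 and ttg2-1. Each line was represented by 3 biological replicate arrays, giving 24 arrays, and wild type was not analysed here. All lines also carried a WER::GFP reporter, in which the promoter of WEREWOLF drives green fluorescent protein in developing epidermis and lateral root cap. Seedlings were 5 days old and had grown in continuous light at 23 C on medium with 1% sucrose, so no light cycle set the clock during growth. Root ends cut about 2 mm from the tip were digested to protoplasts, and fluorescent cells were sorted for RNA. The promoter belongs to a gene that is mutated in the wer line, and digestion and sorting take time between the intact root and the extracted RNA.

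The labelled tissue was checked against its markers. All 6 epidermal markers were measured. WER lay at a mean log2 level of 11.1, and CPC and the root hair expansin EXP7 lay at 10.5. COBL9 was at 9.83, RHD6 at 9.42 and GL2 at 8.67. The lateral root cap factors lay at 10.4 for BRN1, 10.3 for BRN2, 8.77 for SMB and 6.91 for FEZ. The 4 ground tissue markers lay at 2.84 for CO2, 3.87 for MYB36, 5.51 for SCR and 5.89 for CASP1, the last with a mean of 7.21 in the arrays labelled as cpc ttg2. Of the 4 stele markers, VND7 lay at 3.67, SHR at 4.05 and APL at 4.09, and the cytokinin receptor gene WOL was at 10.02. TTG2 was at 4.35 ± 0.44 (SD, n = 3) in ttg2 but at 8.25 ± 0.54 in the arrays labelled as cpc ttg2, above every other line. Of the other mutated genes, CPC lay at 9.88 in cpc, 9.98 in the arrays labelled cpc ttg2 and 9.85 in wer, against 10.7 to 10.9 in the remaining lines, and MYB23 lay at 7.40 in myb23, with wer alone lower at 6.77. TRY was highest in try itself, at 10.7 against 7.09 to 9.57, EGL3 lay at 7.36 in egl3 within 5.19 to 7.59 elsewhere, and WER lay at 10.99 in wer within 10.4 to 11.7 elsewhere. A mutation need not lower its own transcript, so these levels check the labels only in part, and every line is named as labelled. The arrays labelled cpc ttg2 also had the highest line means of 6 heat shock transcripts (10.1 ± 0.19, against 7.83 to 9.10 elsewhere) and of the 4 stele markers (6.10 ± 0.05, against 5.14 to 5.47). The same held for the 4 ground tissue markers (5.19 ± 0.45, against 4.15 to 4.67), for 25S ribosomal RNA (11.1 ± 0.19, against 8.84 to 10.5) and for the difference between the 3' and 5' actin probe sets, a measure of RNA quality (5.79 ± 0.40, against 4.78 to 5.41). Within these lists, single genes were higher in other lines. HSP17.4 (10.04) and SCR (5.80) were higher in egl3, against 9.99 and 5.66 in the arrays labelled cpc ttg2. WOL was higher in wer and myb23 (10.46 and 10.39, against 10.34), and CO2 in gl3, try and ttg2 (2.99 to 3.06, against 2.92). The 3' to 5' difference of GAPDH was highest in gl3 (1.94 ± 0.72, against 1.67 ± 0.13 in the arrays labelled cpc ttg2). The medians of the arrays labelled cpc ttg2, 6.47 to 6.52, were the lowest of the 24. These differences accompany every comparison with that line, and their part in the results was not tested.

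Among the 7 clock genes read in a test of all 8 lines, CCA1 was the only one whose level differed among lines (limma moderated F test with Benjamini-Hochberg adjustment over all genes, adjusted p = 0.0118). That is 14.3% of the clock genes read, beside 27.0% of all genes that passed the same test. Without the line labelled cpc ttg2, CCA1 had an adjusted p of 0.0572 and no longer passed. The count was 3 with each array centred on its median, which added LHY and PRR5, 2 with quantile normalisation, which added LHY, 3 without gl3 replicate 1, and 2 without cpc replicate 2 or 3, gl3 replicate 2 or 3, try replicate 2 or wer replicate 2. The other adjusted p-values were 0.0626 for LHY, 0.0764 for PRR5, 0.104 for ELF4, 0.165 for GI, 0.777 for ELF3 and 0.822 for TOC1, and 4 of the 7 genes had an unadjusted p under 0.05. In the F test among the 6 lines other than wer and myb23, CCA1 (adjusted p = 0.126) and LHY (adjusted p = 0.220) did not pass. There 26.7% of all genes passed, and the adjusted p of CCA1 ran from 0.0292 to 0.355 with single arrays left out. In 204 tests of a clock gene between a pair of lines, 6 passed, which is 2.94% beside 6.89% of all genes over the same 27 pairs. Of the 6, 5 involved the arrays labelled cpc ttg2, where 5 of 54 tests passed (9.26%, beside 23.2% of all genes over those 7 pairs). In the 20 pairs among the remaining lines, 1 of 150 tests passed (0.667%, beside 1.17% of all genes). The p-values measure the spread between these replicate arrays. The cells were sampled in bulk, so a lower level from fewer cells of a type and from less RNA per cell cannot be told apart.

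**Figure D1:**
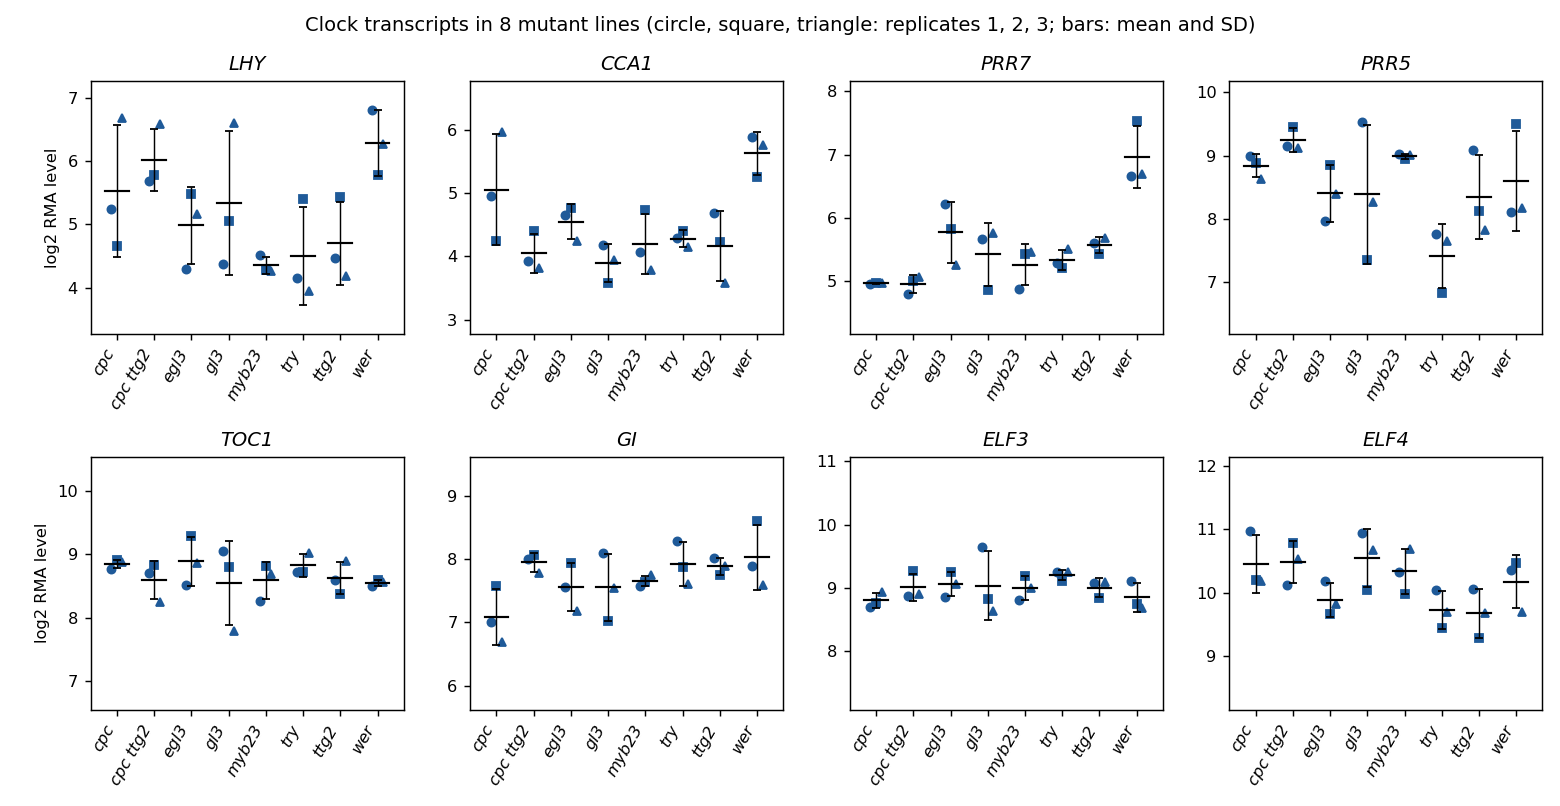
Log2 level of each of the 8 measured clock genes (y axis, log2 units, every panel spanning the same number of units) in the 8 mutant lines (x axis). Points are single arrays marked by replicate, and bars give the mean and SD of 3 arrays. CCA1 and PRR7 sit highest in wer, LHY and PRR5 spread widely within gl3, and TOC1 and ELF3 stay within a narrow band in nearly every line.

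CCA1 (AT2G46830_at), the MYB factor that represses evening genes from dawn onward, was highest in wer. Its log2 levels there were 5.89, 5.25 and 5.76, and they were 4.95, 4.24 and 5.97 in cpc. All 3 wer arrays lay above every array of the other lines except the third cpc array, which was the highest of the 24. In the arrays labelled cpc ttg2 the levels were 3.93, 4.40 and 3.82, and CCA1 was lower there than in wer by 1.59 ± 0.36 (SE) on the log2 scale, a 3-fold difference (adjusted p = 0.00372, in a pair where 26.0% of all genes passed). In try, at 4.29, 4.41 and 4.14, it was lower than in wer by 1.35 ± 0.36, or 2.55-fold (adjusted p = 0.0329, in a pair where 5.10% of all genes passed). Neither of these pairs of lines overlapped, which was also the case for 39.8% and 20.9% of all genes. The difference between try and wer did not pass without any single try array or without wer replicate 1 or 3 (adjusted p up to 0.158). The lines gl3 (adjusted p = 0.107), ttg2 (adjusted p = 0.0645) and egl3 (adjusted p = 0.157) also lay below wer without overlap, but these differences did not pass the test.

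The descriptions attach a running number to most samples, whose meaning the labels do not give, and those numbers fall into separate runs. Within the run with the lowest numbers, the wer array had a CCA1 level of 5.89 and the 4 arrays of other lines lay between 3.59 and 4.95. Within the run that holds most samples, the wer array was at 5.25 and the 12 arrays of other lines lay between 3.57 and 4.76. The wer array was thus the highest in both runs. The third replicates of wer, at 5.76, and of cpc, at 5.97, carry numbers of another form. All 3 arrays labelled cpc ttg2 fell in a run of their own, so that run and that line cannot be told apart. With the runs as a random block, the CCA1 difference between try and wer had an adjusted p of 0.0817 in limma's fit.

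LHY (AT1G01060_at), the close partner of CCA1, had a similar top line but spread further within lines. Its levels were 6.82, 5.78 and 6.27 in wer, 5.68, 5.79 and 6.59 in the arrays labelled cpc ttg2, and 4.51, 4.27 and 4.27 in myb23. The wer and cpc ttg2 arrays overlapped each other, and both lay above all 3 myb23 arrays. Of all genes, 13.3% did not overlap between wer and myb23, and 53.4% between the arrays labelled cpc ttg2 and myb23. Relative to myb23, LHY in the arrays labelled cpc ttg2 was higher by 1.67 ± 0.55, or 3.18-fold (adjusted p = 0.0322, in a pair where 26.7% of all genes passed). Against try, at 4.15, 5.39 and 3.95, it was higher by 1.52 ± 0.55, or 2.87-fold (adjusted p = 0.0436, in a pair where 30.8% of all genes passed). Neither call held with the runs of sample numbers as a random block (adjusted p = 0.155 and 0.186) or without cpc ttg2 replicate 3 (up to 0.164). The wider distance between wer and try, 1.79 ± 0.55, did not pass (adjusted p = 0.0672), in the pair where 5.10% of all genes passed.

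The 2 dawn genes parted company in the arrays labelled cpc ttg2, where LHY had the second highest line mean of the 8 and CCA1 the seventh. In gl3, LHY ran from 4.38 through 5.05 to 6.60, which at 2.22 was its widest range within a line. The gl3 levels of CCA1 were 4.17, 3.58 and 3.93, so the gl3 array with the highest LHY did not have the highest CCA1. In cpc, the third array was highest for both genes, at 6.69 for LHY and 5.97 for CCA1. The residual SD of LHY within lines, 0.74, exceeded that of 92.1% of all genes, while that of CCA1, 0.46, exceeded that of 66.3%.

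PRR7 (AT5G02810_at), a repressor of CCA1 and LHY that acts in the daytime, was read without a test where wer or myb23 was involved. Its levels were 6.66, 7.53 and 6.69 in wer and 4.88, 5.43 and 5.46 in myb23, a difference of 1.70, or 3.26-fold, that had led to its choice. The wer arrays lay above all 21 arrays of the other lines, the highest of which was the first egl3 array at 6.22. The other clock genes differed between wer and myb23 by 1.94 for LHY, 1.44 for CCA1 and 0.37 for GI, with wer higher. For PRR5, TOC1, ELF3 and ELF4 the difference of wer minus myb23 lay between -0.39 and -0.04. The dawn genes and PRR7 were thus the ones that stood high in wer relative to myb23, as a description of these arrays.

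Among the 6 lines other than wer and myb23, PRR7 did not differ in the F test (adjusted p = 0.112, where 26.7% of all genes passed). It was measured at 4.95, 4.97 and 4.96 in cpc, the tightest 3 values of any clock gene in any line. Levels were 4.79, 5.01 and 5.06 in the arrays labelled cpc ttg2 and 6.22, 5.83 and 5.26 in egl3. These lines did not overlap, as was the case for 46.7% of all genes. PRR7 was lower in the arrays labelled cpc ttg2 by 0.82 ± 0.27, or 1.76-fold (adjusted p = 0.0264, in a pair where 34.9% of all genes passed). It was the only one of 15 pairs tested for PRR7 that passed. With each array centred on its median, which moved the median difference of all genes in that pair by 0.34, the difference was -0.48 and did not pass (adjusted p = 0.171).

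PRR5 (AT5G24470_at), which follows PRR7 in the daily sequence and also represses CCA1 and LHY, was lowest in try. Its levels were 7.75, 6.83 and 7.65 in try and 9.16, 9.46 and 9.12 in the arrays labelled cpc ttg2. The lines did not overlap, as was the case for 44.6% of all genes. PRR5 was higher in the arrays labelled cpc ttg2 by 1.84 ± 0.45, or 3.57-fold (adjusted p = 0.00483, in a pair where 30.8% of all genes passed). In myb23 the levels ran from 8.94 to 9.02, also above all try arrays, but the difference of 1.58 ± 0.45 did not pass (adjusted p = 0.105). In cpc they were 8.99, 8.89 and 8.64, again without overlap and without passing (adjusted p = 0.108). Of all genes, 19.6% did not overlap between myb23 and try, and 18.3% between cpc and try. Within the largest run of sample numbers, the try arrays, at 6.83 to 7.75, lay below the 9 arrays of the lines other than wer and try, at 7.83 to 9.09. The gl3 arrays, at 9.53, 7.35 and 8.27, covered a range of 2.18 that reached into the try values.

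TOC1 (AT5G61380_at), the evening repressor of CCA1 and LHY, was among the steadiest. Its line means spanned 0.34, from 8.55 ± 0.67 in gl3 to 8.89 ± 0.39 in egl3, and 0 of 27 pairs of lines passed in limma's fit, with 0 at an unadjusted p under 0.05. The 95% interval of the widest difference, egl3 minus gl3, ran from -0.23 to 0.91. The largest spread was again within gl3, at 9.06, 8.80 and 7.80, and the third gl3 array was the lowest of all 24.

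GI (AT1G22770_at), which helps set the stability of the clock's protein components and links the clock to flowering, was lowest in cpc. Its levels there were 7.01, 7.57 and 6.69, against 7.89, 8.60 and 7.60 in wer and 8.01, 8.07 and 7.78 in the arrays labelled cpc ttg2. Both lines lay above cpc without overlap, wer by 0.94 ± 0.29 (adjusted p = 0.0892) and the arrays labelled cpc ttg2 by 0.87 ± 0.29 (adjusted p = 0.0689), and neither difference passed, nor did any other pair for GI (0 of 27 in limma's fit, with 4 at an unadjusted p under 0.05). Their intervals ran from 0.32 to 1.55 and from 0.25 to 1.48, so the unadjusted intervals did not include 0. Of all genes, 18.4% did not overlap between cpc and wer, and 25.3% between cpc and the arrays labelled cpc ttg2.

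ELF3 (AT2G25930_at), the scaffold of the evening complex, had a residual SD of 0.25, below that of most genes, and line means that spanned 0.41 from cpc, at 8.80 ± 0.12, to try, at 9.21 ± 0.08. The levels were 8.70, 8.76 and 8.94 in cpc and 9.25, 9.11 and 9.25 in try, which did not overlap, and the difference did not pass (adjusted p = 0.372). Between cpc and try, 18.3% of all genes did not overlap. For ELF3 0 of 27 pairs passed in limma's fit, with 0 at an unadjusted p under 0.05. ELF4 (AT2G40080_at), its small partner that is needed for the rhythm to persist, was measured at 10.94, 10.04 and 10.68 in gl3 and at 10.06, 9.29 and 9.68 in ttg2. These lines overlapped narrowly, and 0 of 27 pairs of lines passed for ELF4, with 8 at an unadjusted p under 0.05. Between lines next to each other in the order of means, no tested pair passed for any of the 8 genes.

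**Figure D2:**
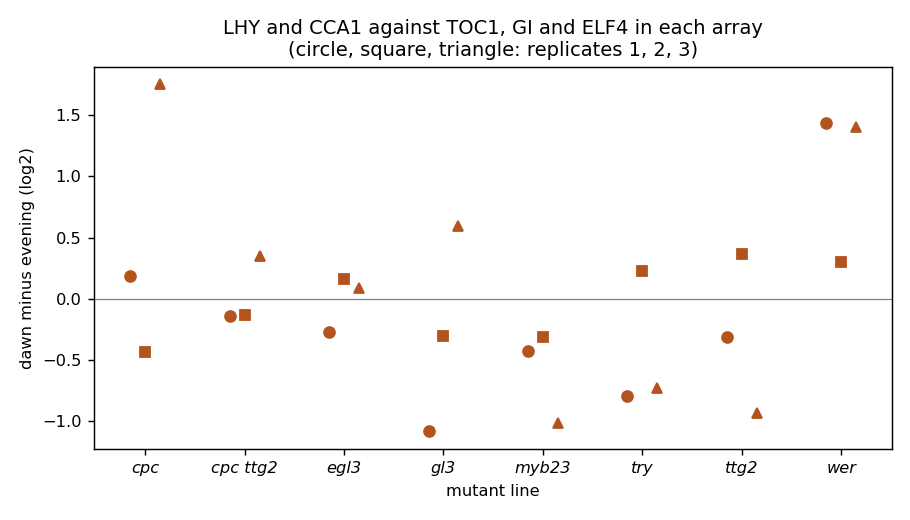
Mean gene-centred level of LHY and CCA1 minus that of TOC1, GI and ELF4 (y axis, log2 units) in each of the 24 arrays, by mutant line (x axis), with symbols for the replicates. The wer arrays are all above 0 and the myb23 arrays all below it, and every other line has arrays on both sides.

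A phase difference could move the dawn and evening genes apart, depending on the phases sampled. Each array was therefore described by the mean gene-centred level of LHY and CCA1 minus that of TOC1, GI and ELF4. The values were 1.44, 0.30 and 1.40 in wer and -0.42, -0.31 and -1.01 in myb23. In cpc they were 0.19, -0.43 and 1.75, and in gl3 -1.08, -0.30 and 0.60. The try values were -0.79, 0.23 and -0.73 and the ttg2 values -0.31, 0.36 and -0.93, so single arrays of both lines reached the myb23 values. In egl3 the values were -0.27, 0.16 and 0.09, and in the arrays labelled cpc ttg2 -0.14, -0.13 and 0.35. All wer arrays were thus positive and all myb23 arrays negative, while every other line had arrays on both sides of 0. In wer the positive value came from the dawn genes, whose mean was 1.11 ± 0.42 above the average of all arrays, while the mean of the evening genes was 0.07 ± 0.30. In myb23 the dawn genes were at -0.57 ± 0.24 and the evening genes at 0.01 ± 0.17, so there too the value came from the dawn genes. The third cpc array had the highest value of the 24, and the first gl3 array the lowest. All myb23 arrays fell in the run of sample numbers that holds most samples, but only the second wer array did. Its value there, 0.30, was below that of the second ttg2 array, 0.36. Within the run with the lowest numbers, the wer array was the highest, at 1.44. The part of the runs in the distance between wer and myb23 was not tested.

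**Figure D3:**
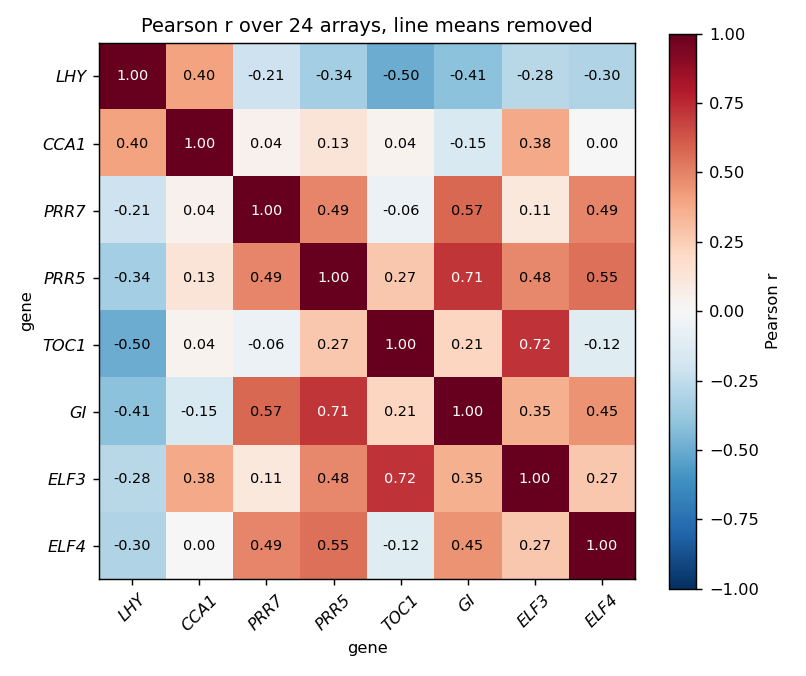
Pearson r between each pair of the 8 clock genes (both axes list the genes) over 24 arrays after the mean of each line was removed, with the colour scale running from -1 to 1. LHY was negative with the later genes from PRR7 to ELF4, and PRR5 with GI (0.71) and TOC1 with ELF3 (0.72) had the highest values.

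Replicates of a line could differ in phase, so the genes were also compared over the 24 arrays after the mean of each line was removed. In the family of 28 pairs, 0 passed after Benjamini-Hochberg adjustment of permutation p-values, with 4 pairs at an unadjusted p under 0.05 by Pearson's r and 6 by Spearman's rho. The strongest by p was PRR5 with GI (r = 0.71, permutation p = 0.00745, adjusted p = 0.209; rho = 0.64, permutation p = 0.0102, adjusted p = 0.218), with r = 0.58 without the 2 arrays farthest in PRR5. TOC1 with ELF3 had r = 0.72 (permutation p = 0.0227, adjusted p = 0.281) and rho = 0.56 (permutation p = 0.0351, adjusted p = 0.218), and r = 0.53 without the 2 farthest arrays. LHY with CCA1, the pair that peaks together, had r = 0.40 (permutation p = 0.157, adjusted p = 0.441) and rho = 0.34 (permutation p = 0.163, adjusted p = 0.390), and r = 0.26 without the 2 farthest arrays. LHY with TOC1, the pair that opposes, had r = -0.50 (permutation p = 0.0761, adjusted p = 0.305) and rho = -0.46 (permutation p = 0.0692, adjusted p = 0.235), and r = -0.38 without the 2 farthest arrays. LHY was negative with each of PRR5, TOC1, GI, ELF3 and ELF4, from -0.28 to -0.50. CCA1 lay between -0.15 and 0.38 with those 5 genes, and the difference between the patterns of LHY and CCA1 was not tested.

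**Figure D4:**
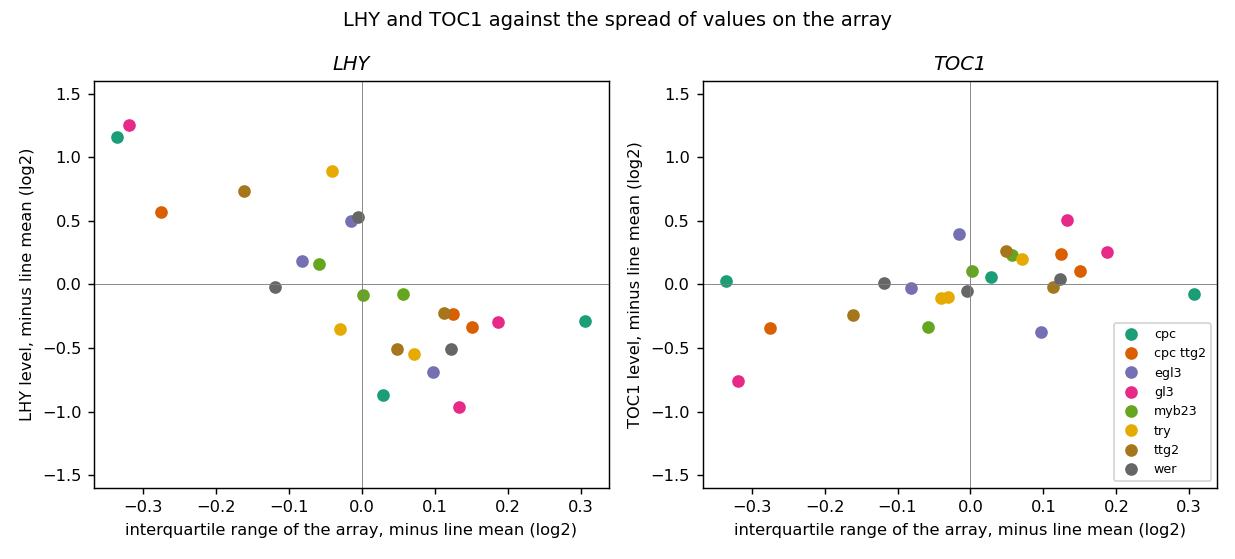
LHY and TOC1 levels after removal of line means (y axes, log2 units) against the interquartile range of the array's log2 values, likewise with line means removed (x axes, log2 units). Each point is 1 of 24 arrays. LHY falls along the x axis (r = -0.77) and TOC1 rises (r = 0.53).

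LHY also went with a property of the whole array. With line means removed, its level and the interquartile range of all log2 values on the array had r = -0.77 (permutation p = 0.00332, adjusted p = 0.133 over 80 relations of a clock gene with an array measure) and rho = -0.74, and r = -0.63 without the 2 farthest arrays. TOC1 ran the other way, with r = 0.53 (permutation p = 0.0432, adjusted p = 0.580). None of the 80 passed after adjustment, and 5 had an unadjusted permutation p under 0.05. By Pearson's r the lowest p was that of ELF4 with the mean of the epidermal markers (r = 0.66, permutation p = 0.00259, adjusted p = 0.133). That relation had rho = 0.64, and r = 0.64 without the 2 farthest arrays, and its cause was not tested. LHY went with the difference between the 3' and 5' actin probe sets too (r = 0.61, permutation p = 0.0148, adjusted p = 0.395), and TOC1 with that of GAPDH (r = -0.69, permutation p = 0.0333, adjusted p = 0.580). The third gl3 array, with the lowest TOC1 and a high LHY, had the largest GAPDH difference, 2.78. The part of these array measures in the opposition of LHY and TOC1 was not tested.

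Over the same arrays, the genes whose levels went most closely with LHY were not clock genes. With line means removed they were ATMG00770 (r = 0.862), RDR1 (r = 0.848), AT2G45850 (r = 0.842), DRM1 (r = 0.837) and AT2G11370 (r = 0.837), and CCA1 ranked 3287 of the 21439 other genes. The remaining clock genes ranked from 13677 for PRR7 to 20225 for TOC1. For TOC1 the closest were AKRP (r = 0.903), RABA1g (r = 0.893), AT5G17360 (r = 0.879), AT5G45190 (r = 0.872) and RCY1 (r = 0.867), with ELF3 at rank 129 and LHY at rank 20402. Between ELF3 and LHY, PRR5 ranked 5231, GI 6454, CCA1 10731, PRR7 13038 and ELF4 14320. The closest to PRR7 were AT3G49770 (r = 0.710), AT4G19740 (r = 0.688), PP2-B10 (r = 0.687), AT2G06840 (r = 0.673) and DSPTP1 (r = 0.661). For PRR7, GI ranked 55, ELF4 193, PRR5 209, ELF3 6722, CCA1 9037, TOC1 13217 and LHY 18323. With PRR7, GI (r = 0.57), ELF4 (r = 0.49) and PRR5 (r = 0.49) did not pass (permutation test, adjusted p = 0.281, 0.281 and 0.441). Without the 2 arrays farthest in PRR7, r was 0.37, 0.36 and 0.21.

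Of 31 further clock components listed by name, 28 were measured, and 10 of them (35.7%, beside 27.0% of all genes) differed among lines in limma's F test. The mean level was lowest in the arrays labelled cpc ttg2 for 7 of the 10 and highest there for 1, beside 49.9% and 28.1% of all genes that passed. Without that line, 1 of the 28 passed (3.57%, beside 4.07% of all genes). The count of 10 ran from 5, without cpc ttg2 replicate 3, to 12 with single arrays left out, and was 4 with the runs of sample numbers as a random block. JMJD5, a jumonji-domain protein that takes part in setting the period, had the lowest p of the list (adjusted p = 0.00174). Its levels were 5.06, 4.42 and 4.29 in the arrays labelled cpc ttg2, 5.37, 5.73 and 5.21 in wer, and 6.67, 7.68 and 7.69 in egl3. JMJD5 was lower in wer than in egl3 by 1.91 ± 0.45 (adjusted p = 0.0393, in a pair where 1.32% of all genes passed) and than in try by 1.65 ± 0.45 (adjusted p = 0.0379). The wer line had the highest line means of CCA1 and LHY. The arrays labelled cpc ttg2, lowest in JMJD5, were second for LHY and seventh for CCA1. A link of JMJD5 with CCA1 or LHY was not tested.

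PRMT5, an arginine methyltransferase that acts on splicing of clock transcripts, differed among lines (adjusted p = 0.00520), and its 7 passing pairs all involved the arrays labelled cpc ttg2, where its level was 7.23 ± 0.43 against 10.03 ± 0.62 in gl3. LWD1 (adjusted p = 0.0124), a WD-repeat activator of clock genes, and CKB4 (adjusted p = 0.0156), a regulatory subunit of the kinase CK2 that phosphorylates CCA1, passed with 5 pairs each, all with that line and all lower there. LWD2, the relative of LWD1, was low in cpc as well (adjusted p = 0.00660). Its levels were 7.56, 7.35 and 6.31 in cpc, below 8.38, 8.41 and 8.34 in egl3 by 1.31 ± 0.28 (adjusted p = 0.0146, in a pair where 2.83% of all genes passed). It was lower in cpc than in gl3 (adjusted p = 0.0323, with 0.504% of all genes passing) and than in try (adjusted p = 0.0489, with 2.35%). RVE3 (adjusted p = 0.945) and TEJ (adjusted p = 0.943) had the highest p-values. Between the arrays labelled cpc ttg2 and egl3, 11 of the 28 components were lower in the former (39.3%, beside 20.4% of all genes) and 4 were higher (14.3%, beside 14.4%). That was the highest count of lower components among the 7 pairs with that line. In the other 6 pairs, 2 to 8 of the 28 were lower there, beside 5.30% to 18.8% of all genes.

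Among 16 genes through which the clock acts on other processes, 4 differed among lines, a share slightly below the 27.0% of all genes. The count ran from 1 (without cpc ttg2 replicate 2 or 3) to 6 with single arrays left out, was 2 without cpc ttg2 replicate 1, gl3 replicate 3 or try replicate 3, 1 with the number runs as a random block and 0 in limma's fit without the line labelled cpc ttg2, where 2 of the 16 had an unadjusted p under 0.05. GRP7, an RNA-binding protein under clock control, was at 10.9 ± 0.20 in the arrays labelled cpc ttg2 and between 11.8 and 12.4 in the means of the other lines, and passed in all 7 pairs with that line. Its relative GRP8 had the highest mean in wer, 11.7, and the lowest in gl3, 10.8 (adjusted p = 0.0235). The kinase gene WNK1 was highest in the arrays labelled cpc ttg2, at 10.6, and lowest in try, at 9.29 (adjusted p = 0.0261). The catalase gene CAT3, which has an evening peak, was lowest in the arrays labelled cpc ttg2, at 5.31, and highest in egl3, at 6.36 (adjusted p = 0.0485).

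ASN1, an asparagine synthetase gene that responds to darkness and low sugar, did not pass among the 8 lines (adjusted p = 0.0558), but separated wer from try. Its levels were 10.94, 10.45 and 10.76 in wer and 8.13, 7.57 and 7.55 in try, without overlap, and it was lower in try by 2.97 ± 0.68 (adjusted p = 0.0139). Between try and wer, 20.9% of all genes did not overlap. In this pair, in which CCA1 also differed, 1 of the 16 genes passed (6.25%, beside 5.10% of all genes). Between the arrays labelled cpc ttg2 and wer, where CCA1 differed too, ASN1 did not pass in limma's fit (adjusted p = 0.125). A link between ASN1 and CCA1 was not tested. COL1 (adjusted p = 0.656) and COL2 (adjusted p = 0.837), relatives of the flowering regulator CONSTANS, had the highest p-values of these genes.

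Of 7 photoreceptor genes, whose products carry light signals to the clock, PHYC alone differed among lines (14.3%, beside 27.0% of all genes, adjusted p = 0.0308). PHYC did not pass without cpc ttg2 replicate 1 or 2, try replicate 2 or 3 or the whole line labelled cpc ttg2, nor with the number runs as a random block. The count of photoreceptor genes was 2 without egl3 replicate 2, gl3 replicate 1 or 2 or the whole gl3 line, and 3 with median centring or quantile normalisation. PHYC levels ran from 7.55 to 8.37 in the arrays labelled cpc ttg2 and from 6.58 to 6.94 in try, without overlap. Between those lines 44.6% of all genes did not overlap. CRY2 (adjusted p = 0.0742), CRY1 (adjusted p = 0.244), PHYE (adjusted p = 0.308), PHYD (adjusted p = 0.318), PHYA (adjusted p = 0.531) and PHYB (adjusted p = 0.572) did not pass.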

How the data were processed

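The authors deposited 1 table of log2 values for all 24 arrays, made with RMA (robust multi-array averaging), per the submitters' processing notes. Version and array type are not given in the sources, and detection calls were not used here. RMA makes array distributions alike and compresses differences of dim genes, and array medians still ran from 6.47 to 6.91. After 64 control entries were left out, 21440 genes remained, of which 21222 were named from a RefSeq table of TAIR10.1.

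With limma 3.58.1 (lmFit, eBayes) in R 4.3.3, 1 linear model over the 24 arrays estimated the mean of each line, and the code was tested on simulated data. Moderated F tests were read among 8 lines (not for PRR7) and among 6 lines, and pairs of lines with BH adjustment over all genes within a pair; a gene passed at an adjusted p under 0.05. Wer with myb23 was not tested for any clock gene. Errors are SD for levels and SE for differences. Correlations used 100000 permutations within lines, 2-sided. The planned 45 pairs became 28, and LUX was left out of the dawn minus evening value. The number of arrays limits the precision.

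The genes, lists and tests were chosen with earlier results of these data known. Named genes were the listed clock genes, the 5 lowest and 2 highest F test p-values of each other list, and the 5 closest genes to LHY, TOC1 and PRR7; the photoreceptor list was given whole. Alternatives were a replicate or number block, median centring, quantile normalisation, a mean level of at least 5, a robust trended prior, and leaving out lines or single arrays; leaving out gl3 was added after seeing the data.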

Additional observations from a re-analysis of the deposited data

How the results depend on the processing

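The count of genes that differed among 8 lines, 5786, became 3030 with the number runs as a random block, 872 without the line labelled cpc ttg2, and 3588 (without its replicate 3) to 6547 with single arrays left out. Among 6 lines, 5734 became 2919, 618 and 3762 (again without cpc ttg2 replicate 3) to 6503. The 6 passing pairs of clock genes became 2 with the number block, 10 with each array centred on its median, and 4 to 10 with single arrays left out (10 without gl3 replicate 1). The count of clock genes past the F test, 1 of 7, became 3 with median centring, 2 with quantile normalisation, 3 without gl3 (chosen after seeing the data), 0 without cpc ttg2, and 1 to 3 with single arrays left out. It was 2 without cpc replicate 2 or 3, gl3 replicate 2 or 3, try replicate 2 or wer replicate 2, and 3 without gl3 replicate 1. CCA1 kept an adjusted p of 0.00400 to 0.0440 with single arrays left out and had 0.0572 without cpc ttg2. LHY passed with median centring (0.039), quantile normalisation (0.048), the dim-gene filter (0.0458) and without gl3 (0.0234), and without cpc replicate 2 (0.0446) or 3 (0.0367), gl3 replicate 1 (0.0365) or 3 (0.028) or try replicate 2 (0.0404). PRR5 passed with median centring (0.048), without gl3 (0.0164), gl3 replicate 1 (0.0163) or 2 (0.0347), or wer replicate 2 (0.0437). PRR7 among 6 lines passed without egl3 replicate 3 (0.049) or gl3 replicate 2 (0.0484). Among 6 lines, PRR5 (0.0561) passed in 5 of 8 such settings (lowest 0.0102, without gl3) and without gl3 replicate 1 or 2, ttg2 replicate 1 or wer replicate 2 (0.0122 to 0.0384), and ELF4 (0.0600) in 5 of 8 (lowest 0.0314, median centring) and without gl3 replicate 2, try replicate 1, ttg2 replicate 1 or wer replicate 3 (0.0307 to 0.0491). PRR5 between cpc ttg2 and try passed in every setting run, and CCA1 between cpc ttg2 and wer in every setting that held CCA1. The filter at a mean level of at least 5 left out CCA1, whose mean level was 4.48. CCA1 between try and wer did not pass with the number block (adjusted p = 0.0817) or without any single try array or wer replicate 1 or 3 (up to 0.158). LHY between cpc ttg2 and try did not pass with the number block (0.186) or without any of 10 single arrays (each of cpc ttg2 and myb23, try replicate 1 or 3, egl3 replicate 3 and ttg2 replicate 1, up to 0.164). LHY between cpc ttg2 and myb23 did not pass with the number block (0.155) or without cpc ttg2 replicate 3 or any myb23 array (up to 0.131). PRR7 between cpc ttg2 and egl3 did not pass with the number block (0.0928), with median centring (-0.48, adjusted p = 0.171), which moved the median of all genes in that pair by 0.34, or without replicate 1 or 2 of either line (up to 0.134). The causes were not tested. The correlation count was 0 in every setting. The model did not pair samples by replicate number. With line means removed, 32 of 84 same-numbered pairs of arrays of different lines correlated above 0.1, with a highest value of 0.58. Their median was 0.018, against -0.019 for arrays with different numbers. On average, 12 of 24 arrays correlated best with their own number. These values do not settle whether replicates of the same number were handled together. With the replicate block, 6034 and 5965 genes passed the F tests, 7 pairs and 1 clock gene passed, and ELF4 passed among 6 lines (0.0385).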
